A study of Mus musculus with 6 samples.

Results

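The Hippo core described here comprises the 10 genes of the co-activators, their DNA-binding partners and the kinases above them: *Yap1*, *Wwtr1* (encoding TAZ), *Tead1*, *Tead2*, *Tead3*, *Tead4*, *Lats1*, *Lats2*, *Stk3* and *Stk4*. They were found by symbol in a deposited table of 24402 loci and 23159 gene symbols, and all 10 had at least 1 locus. Together they occupied 11 loci, because *Tead1* was listed at 2 loci and *Lats2* shared its locus with *Xpo4*, so 8 genes had a locus that was theirs alone. RNA was extracted from whole C57BL/6 mouse lungs at 12.5 *dpc*, with 3 libraries from wild-type embryos (controls) and 3 from Yap-flox/flox; Shh-Cre/+ littermates (*Yap* mutants). Cre is produced from the *Shh* locus, which is active in the lung epithelium, so *Yap* is removed from epithelial cells and kept in the mesenchyme. The mutants also carry 1 *Shh* allele altered by Cre, and the controls were labelled wild type. The table gives 1 value per genotype, in FPKM (fragments scaled by transcript length and library size), which the authors made from the libraries of that genotype. Hence no spread between libraries and no depth per library was known, and no difference below was tested.

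Hippo signaling is a kinase cascade that restrains growth. The MST kinases (encoded by *Stk3* and *Stk4*) act with the adaptor SAV1 to phosphorylate and activate the LATS kinases, and LATS, bound to MOB1, phosphorylates YAP and TAZ, which are then held in the cytoplasm or degraded. When the kinases are inactive, YAP and TAZ enter the nucleus and activate genes through the TEAD transcription factors, since neither co-activator binds DNA itself. Much of this control acts on proteins, through phosphorylation and location, and is not seen in RNA levels.

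TEAD factors recognize the letters GGAATG, the form that the study searched for in promoters. The 300 bases around each start site (250 before and 50 after, from RefSeq on GRCm38.p6) were scanned for GGAATG on either strand. The study searched farther upstream and also assessed conservation, so sites outside these windows are not covered here. Windows were found for 7 of the 10 genes, 11 windows in all, and not for *Tead1*, *Tead4* and *Stk3*. A match was present for 4 of these 7 genes (57.1%), *Yap1*, *Wwtr1*, *Tead3* and *Lats2*, beside 16.6% of all 27025 genes with a window. Counted by window, 6 of 11 held a match, beside 14.7% of all 32851 windows. Both windows of *Wwtr1* overlap and hold the same site, which was counted in each, so the windows are not independent. The sequences below are shown because they put the letters of the TEAD site next to the start of the genes that encode YAP, TAZ and a TEAD factor. Each is written 5′ to 3′ on the strand of its gene (the minus strand for all of them), stops before the first annotated transcript base, and has the match in capitals.

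*Yap1*, chr9:8004639-8004846, match starting at position -141 from the start site: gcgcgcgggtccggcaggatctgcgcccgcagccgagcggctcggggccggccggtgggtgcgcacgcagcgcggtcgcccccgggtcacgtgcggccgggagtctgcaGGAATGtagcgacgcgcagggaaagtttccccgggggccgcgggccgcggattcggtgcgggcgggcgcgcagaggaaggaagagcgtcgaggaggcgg

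*Wwtr1*, chr3:57575911-57576160, match starting at position -136: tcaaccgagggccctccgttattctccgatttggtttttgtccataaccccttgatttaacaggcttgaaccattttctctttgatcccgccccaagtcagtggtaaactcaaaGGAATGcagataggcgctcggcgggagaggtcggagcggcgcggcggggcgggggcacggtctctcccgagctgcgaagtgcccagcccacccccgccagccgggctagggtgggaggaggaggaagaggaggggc

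*Tead3*, chr17:28350818-28351055, match starting at position -182: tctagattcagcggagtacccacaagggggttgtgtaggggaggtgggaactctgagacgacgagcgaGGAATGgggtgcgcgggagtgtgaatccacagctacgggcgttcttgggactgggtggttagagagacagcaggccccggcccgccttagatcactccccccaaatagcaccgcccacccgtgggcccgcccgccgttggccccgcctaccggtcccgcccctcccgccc

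In *Lats2* the match began at position 5 after the start site, and only 30 bases around it are given (chr14:57746102-57746131, minus strand): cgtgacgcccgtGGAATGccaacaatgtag. The windows of *Stk4*, *Tead2* and *Lats1* did not hold these letters. The second window of *Tead3* held further matches, at -123 and -114 on the opposite strand and 1 just after its start site. Of the member windows, 10 of 11 had more than 60% G and C, between 61.3% and 75.3%, and the exception was the downstream window of *Lats2* at 42.7%. The median of all windows was 52.7%. A match of letters is a description of sequence and does not show that a factor is bound.

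*Yap1*, the gene targeted in the mutants, had a control value of 76.1 FPKM and a mutant value of 65.6 FPKM. The mutant value was 1.16-fold lower, a log2 ratio of -0.21. All log2 ratios here are of the mutant over the control value after 0.1 FPKM was added to both. The locus (chromosome 9, 7932001 to 8004596, mm10) covers the whole gene, so reads from transcripts that lack the floxed part are included in the value. Whole-lung RNA also includes the mesenchyme, and fewer cells of a type cannot be told apart from less RNA per cell. *Yap1* was still the member with the second highest level in the mutant lungs. On the strand opposite to *Yap1*, GENCODE places a noncoding transcript, *Gm20416* (7965838 to 7977004), within the gene. The paper describes the libraries as stranded. How strand was used in counting is not given in the sources used here.

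*Wwtr1* encodes TAZ, the paralog of YAP that shares its TEAD partners. It was listed at 24.5 FPKM in control and 22.4 FPKM in mutant lungs, 1.09-fold lower, with a log2 ratio of -0.13 (chromosome 3, 57455644 to 57575910). In both genotypes, the RNA of TAZ was therefore well below that of YAP. The ratio of *Yap1* to *Wwtr1* was 3.10 in control and 2.93 in mutant lungs. Summed over both co-activators, the level was 100.7 FPKM in control and 88.1 FPKM in mutant lungs, of which *Yap1* made up 75.6% and 74.6%. In whole-lung RNA, no higher value for TAZ accompanied the lower value for YAP in the mutants. These values do not give the epithelium alone, where *Yap* is removed, so a change of TAZ there was not tested.

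The levels of the TEAD genes spanned a wide range, with *Tead2* far above the others. *Tead2*, which is known for its expression in early embryos, was the highest of all members, with 170.4 FPKM in control and 156.1 FPKM in mutant lungs (chromosome 7, 45215753 to 45233619), a log2 ratio of -0.13. *Tead3*, known from the placenta, had 24.8 FPKM and 20.0 FPKM and the lowest ratio of the members, 1.24-fold lower in the mutants, a log2 ratio of -0.31 (chromosome 17, 28331673 to 28350805). *Tead4*, known from the trophectoderm, was the lowest of the TEAD genes that have 1 locus, at 2.74 FPKM in control and 2.28 FPKM in mutant lungs (chromosome 6, 128224302 to 128300881). Its log2 ratio was -0.25, a fold of 1.19.

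*Tead1*, known for its role in the heart, had 2 loci with the same coordinates (chromosome 7, 112665559 to 112906805). The first was listed at 18.3 FPKM in control and 19.0 FPKM in mutant lungs, a log2 ratio of 0.06. The second was listed at 1.29 and 2.17 FPKM, 1.64-fold higher in the mutants, a log2 ratio of 0.71. The 2 loci appear to lie on different strands. *Tead1* is on the plus strand in GENCODE, and of the 10 named loci whose numbers in the table are nearest to each, all 10 were on the plus strand for the first and all 10 on the minus strand for the second. On the minus strand, GENCODE annotates a long noncoding RNA that starts from a shared promoter, *2310014F06Rik* (112612560 to 112680081), which overlaps these coordinates. What the second locus measured is therefore uncertain. In the table, 130 pairs of symbol and coordinates were given to more than 1 locus.

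The kinase genes lay within a narrow range of levels and ratios. *Stk3* (MST2) was listed at 17.5 FPKM in control and 16.0 FPKM in mutant lungs, a log2 ratio of -0.13 (chromosome 15, 34875499 to 35155806). *Stk4* (MST1) was listed at 15.7 and 15.3 FPKM, a log2 ratio of -0.04 that turned to 0.003 when both columns were scaled to the same total (chromosome 2, 164074128 to 164155521). *Stk3* thus exceeded *Stk4* by 1.11-fold in control and 1.05-fold in mutant lungs, and whether either exceeds the spread between libraries is not known. *Lats1* was listed at 11.2 and 11.997 FPKM, 1.07-fold higher in the mutants, a log2 ratio of 0.09 (chromosome 10, 7681209 to 7716461).

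For *Lats2* no value of its own was available. Its locus on chromosome 14, from 57577537 to 57746123, also carries the symbol of *Xpo4*, a nuclear transport receptor gene on the same strand. GENCODE places *Lats2* at 57689662 to 57758388 and *Xpo4* at 57577521 to 57665430, with a further protein-coding model, *Gm49361* (57642077 to 57746103), that overlaps both. The joint value was 28.3 FPKM in control and 26.8 FPKM in mutant lungs, a log2 ratio of -0.08. How this value divides between the 2 genes is not known, so it gives neither the level of *Lats2* nor its ratio to *Lats1*.

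**Figure D1:**
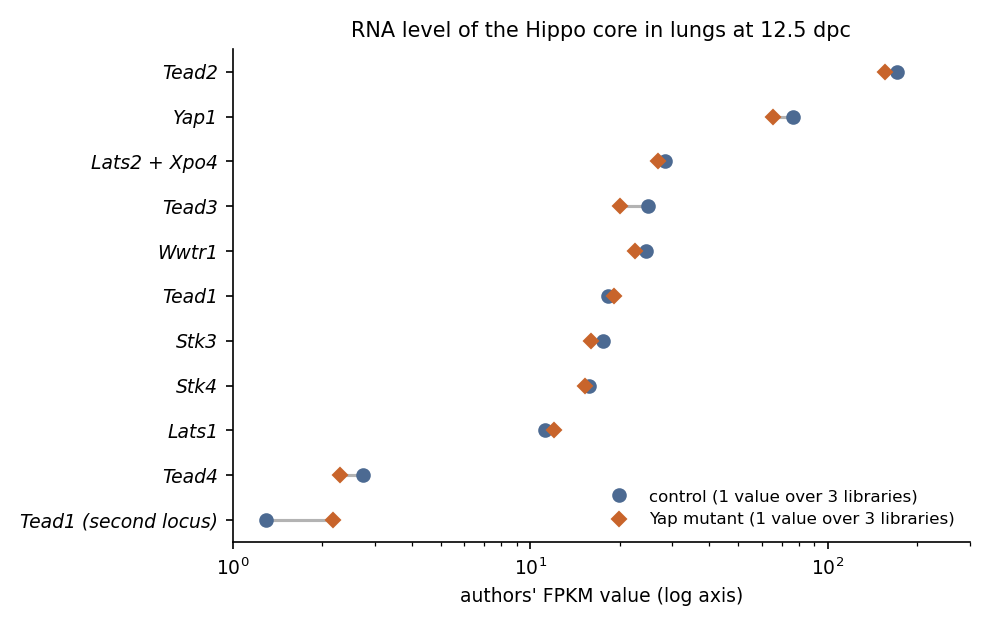
FPKM on a log axis for the 11 loci of the Hippo core, with 1 authors' value for control (circles) and 1 for *Yap* mutant lungs (diamonds) per locus. *Tead2* at 170.4 and 156.1 FPKM and *Yap1* at 76.1 and 65.6 FPKM stand above the other loci, which lie between 1.29 and 28.3 FPKM.

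From highest to lowest in control lungs, the order was *Tead2*, *Yap1*, the joint *Lats2* and *Xpo4* locus, *Tead3*, *Wwtr1*, *Tead1*, *Stk3*, *Stk4*, *Lats1*, *Tead4* and the second *Tead1* locus. In the mutants the order was the same except that *Wwtr1* (rank 4) stood above *Tead3* (rank 5). *Tead3* and *Wwtr1* were 24.8 and 24.5 FPKM in control lungs, a gap that cannot be judged without a spread. Among the 12716 loci averaging 1 FPKM or more, *Tead2* exceeded 96.6% and *Yap1* exceeded 91.6% in control lungs. *Lats1* exceeded 45.9% of them and *Tead4* exceeded 15.3%.

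Of the 11 member loci, 8 had a lower and 3 a higher value in the mutants (7 and 4 when both columns were scaled to the same total), with a median log2 ratio of -0.13. Over all 12716 loci averaging 1 FPKM or more, 51.8% were lower and the median was -0.006. Among the 7304 loci averaging 10 FPKM or more, where all members but *Tead4* and the second *Tead1* locus lie, 59.5% were lower and the median was -0.03. In the absence of a test, a ratio of at least 1.2-fold was counted as a difference in size. By this measure 1 of 11 member loci was lower (*Tead3*), where 8.78% of all loci were, and 1 of 11 was higher (the second *Tead1* locus), where 12.2% of all loci were. At 1.5-fold, 0 member loci were lower, where 3.30% of all loci were, and 1 was higher, again the second *Tead1* locus, where 4.44% of all loci were. Among the loci averaging 10 FPKM or more, fewer were past 1.2-fold, 5.49% lower and 5.46% higher, and the middle 90% lay between -0.27 and 0.28. *Tead3* was below that range.

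**Figure D2:**
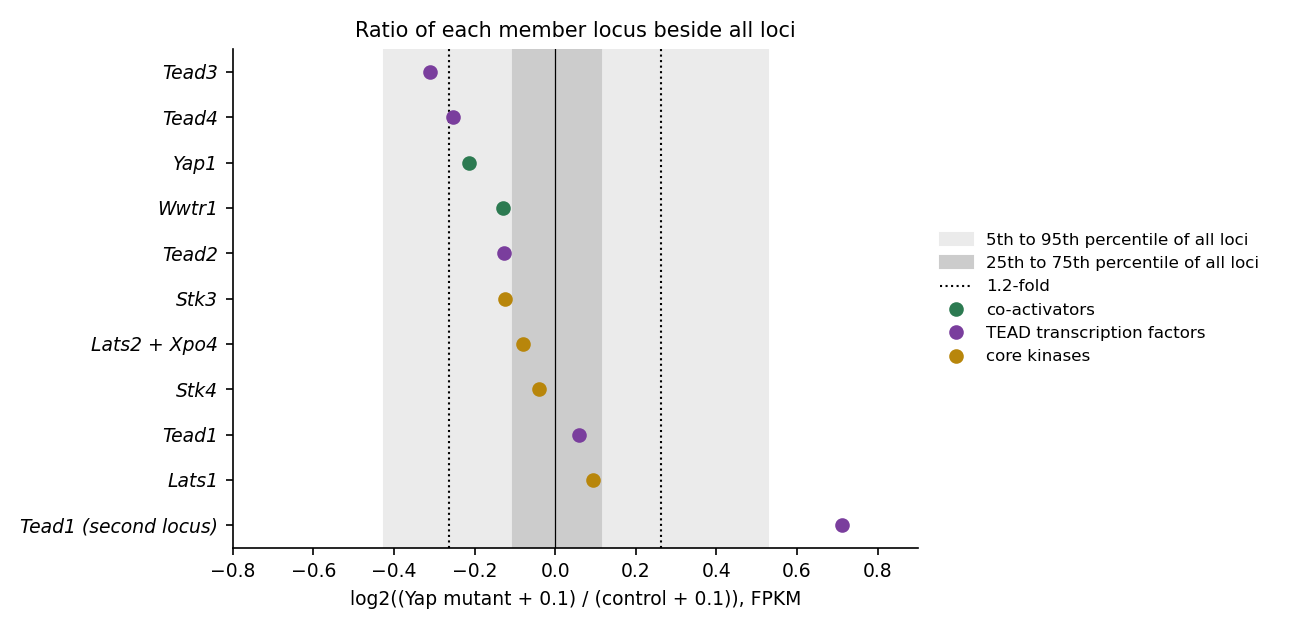
Log2 ratio of *Yap* mutant over control lungs for each member locus (points, coloured by family), with the middle 50% and the middle 90% of the 12716 loci shaded and 1.2-fold dotted. *Tead3* at -0.31 is the only point below 1.2-fold, and the second *Tead1* locus at 0.71 is the only point outside the middle 90% (-0.43 to 0.53).

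The middle 50% of all loci lay between log2 ratios of -0.11 and 0.11. *Tead3*, *Tead4*, *Yap1*, *Wwtr1*, *Tead2* and *Stk3* lay below this range, 6 of 11 member loci where 25% of all loci lie, and the second *Tead1* locus lay above it. A ratio as low as that of *Tead3* or lower was seen at 7.09% of all loci, one as low as that of *Tead4* at 9.19%, and one as low as that of *Yap1* at 11.3%. For *Wwtr1*, *Tead2* and *Stk3* this share was between 20.6% and 21.3%. The ratio of *Yap1* lay within the middle 90% of all loci and of the loci averaging 10 FPKM or more.

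Summed over families, the totals were slightly lower in the mutants, except that the LATS total turned when both columns were scaled to the same total. The TEAD loci summed to 217.5 FPKM in control and 199.6 FPKM in mutant lungs, a log2 ratio of -0.12. The sum of the MST kinases was 33.2 and 31.3 FPKM, a log2 ratio of -0.085, and that of the LATS loci with *Xpo4* was 39.6 and 38.8 FPKM. The last had a log2 ratio of -0.03, and of 0.015 after that scaling. For 1 unit of co-activator RNA there were 2.16 units of TEAD RNA in control and 2.27 in mutant lungs, on the FPKM scale.

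The make-up of the co-activator, TEAD and MST families was nearly the same in both genotypes, and that of the LATS family is not known. *Tead2* made up 78.3% of the TEAD sum in control and 78.2% in mutant lungs. *Tead3* made up 11.4% and 10.02%, the first *Tead1* locus 8.40% and 9.54%, and *Tead4* 1.26% and 1.14%. The second *Tead1* locus made up 0.592% and 1.09%. In the lung at this stage, most TEAD RNA thus came from *Tead2*. *Stk3* made up 52.7% and 51.2% of the MST sum. *Yap1*, at 75.6% and 74.6% of the co-activator sum, kept the larger share in the mutants as well.

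**Figure D3:**
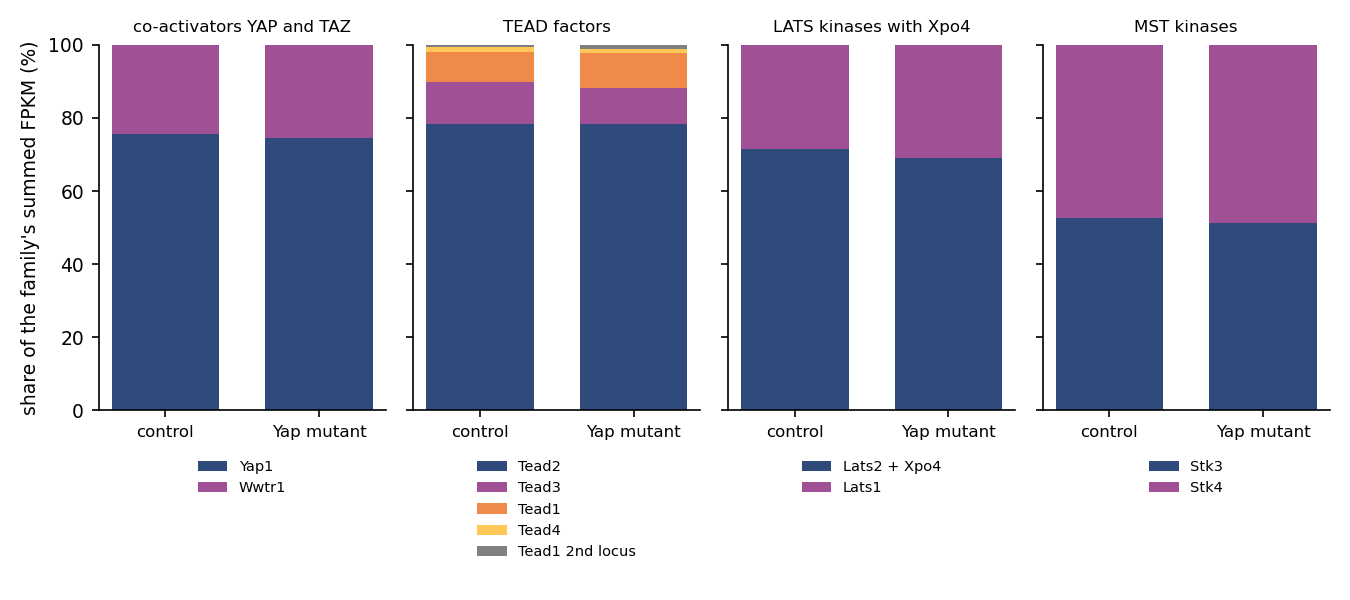
Share of each paralog in its family's summed FPKM, in percent, in control and *Yap* mutant lungs, 1 value per genotype. The LATS bars include *Xpo4*. *Tead2* fills 78.3% and 78.2% of the TEAD bars and *Yap1* 75.6% and 74.6% of the co-activator bars.

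Further genes of the pathway were taken in 7 lists of 93 genes in all, of which 90 had a locus and 81 loci averaged 1 FPKM or more. Of these 81 loci, 7 (8.64%) were lower and 8 (9.88%) were higher by at least 1.2-fold, beside 8.78% and 12.2% of all loci. Their median log2 ratio was -0.04, and 0.007 when both columns were scaled to the same total. The lists are described in the order of the cascade, and the same scaling turned the medians of the adaptors, the other kinases and STRIPAK to 0.02, 0.004 and 0.01. Counts past 1.2-fold in each list stand beside the same 8.78% lower and 12.2% higher of all loci.

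The FAT and Dachsous branch, large cadherins upstream of the cascade, had 5 loci averaging 1 FPKM or more, and all 5 were higher in the mutants, with a median log2 ratio of 0.13. Only *Fat4*, which binds DCHS1 on neighboring cells, was past 1.2-fold, at 8.61 FPKM in control and 14.4 FPKM in mutant lungs, a log2 ratio of 0.74. *Dchs1* was listed at 20.3 and 22.2 FPKM, *Fjx1*, encoding a kinase of cadherin domains, at 10.8 and 11.8 FPKM, and *Lix1l* at 44.98 and 49.9 FPKM. For *Dchs2* no locus was found.

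Among 12 loci of core adaptors and upstream regulators, 2 were lower and 3 were higher by at least 1.2-fold, and the median log2 ratio was -0.02. Of the scaffolds that hold the core kinases, *Sav1* was listed at 36.6 and 36.5 FPKM, *Mob1a* at 68.2 and 66.1 FPKM and *Mob1b* at 12.4 and 13.6 FPKM (log2 ratio 0.135). The lower loci were both regulators at the cell cortex. *Wwc1*, encoding KIBRA, was listed at 8.995 FPKM in control and 5.36 FPKM in mutant lungs, a log2 ratio of -0.74. *Frmd6*, encoding a FERM domain protein, was listed at 16.5 and 11.9 FPKM, a log2 ratio of -0.47. The higher loci were 3 RASSF genes, whose proteins can bind the MST kinases. *Rassf5* had the highest ratio, 0.87, at low levels of 0.759 and 1.47 FPKM. *Rassf3* was listed at 17.5 and 21.9 FPKM and *Rassf6* at 0.913 and 1.22 FPKM. *Rassf5* and *Rassf6* averaged 1 FPKM or more only through the mutant value, and *Rassf3* was the 1 higher locus left at an average of 5 FPKM or more. Of the other RASSF genes, *Rassf1* was listed at 21.0 and 18.6 FPKM and *Rassf2* at 4.72 and 4.88 FPKM, and *Rassf4* averaged under 1 FPKM.

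Of 20 loci of other kinases that act on LATS or YAP, 1 was lower and 1 was higher by at least 1.2-fold, with a median log2 ratio of -0.04. The lower one was *Nuak1*, an AMPK-related kinase gene, at 9.07 FPKM in control and 5.27 FPKM in mutant lungs, a log2 ratio of -0.77. The higher one was *Tnik*, at 1.94 and 2.62 FPKM. *Nuak2*, the paralog of *Nuak1*, averaged under 1 FPKM and was not counted. It was listed at 1.38 and 0.384 FPKM, a log2 ratio of -1.61, and was under 1 FPKM only in the mutants. The paper names it among YAP targets with reduced expression in *Yap* mutant lungs. With no filter on low values, 2 loci of this list were lower by at least 1.2-fold. *Taok1*, encoding a kinase that can activate MST, was listed at 10.02 and 11.7 FPKM. The most abundant were *Csnk1d* and *Map4k4*. *Csnk1d*, a casein kinase gene whose product acts on YAP, was listed at 83.1 and 79.7 FPKM. *Map4k4*, whose product can phosphorylate LATS, was listed at 66.05 and 63.1 FPKM.

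The STRIPAK complex, a phosphatase assembly that counteracts the MST kinases, had 15 loci, and 0 were past 1.2-fold in either direction. Among all loci averaging 10 FPKM or more, where these loci except *Strn* lie, 5.49% were lower and 5.46% higher by that much. With so few loci, nothing is read from this count. Its median log2 ratio was -0.03, and the loci lay between -0.18 and 0.19. *Ppp2ca* and *Ppp2r1a*, the catalytic and scaffold subunits, were listed at 194.0 and 182.5 FPKM and at 172.9 and 160.1 FPKM. *Ppp2cb* was listed at 66.4 and 58.7 FPKM and *Strn*, a striatin, at 6.79 and 7.75 FPKM.

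The angiomotins, the Ajuba family and *Ptpn14* encode proteins that bind YAP or restrain LATS at junctions and in the cytoplasm. All 7 loci were lower in the mutants (6 of 7 when both columns were scaled to the same total), 3 of them (42.9%) by at least 1.2-fold where 8.78% of all loci were, and the median log2 ratio was -0.26. *Ajuba*, a LIM protein that inhibits LATS, was listed at 29.8 and 20.6 FPKM, a log2 ratio of -0.53. *Amotl2*, an angiomotin that binds YAP, was listed at 18.3 and 12.8 FPKM, a log2 ratio of -0.52. *Ptpn14*, a phosphatase that binds YAP, was listed at 6.37 and 5.12 FPKM (log2 ratio -0.31), and *Wtip*, a relative of *Ajuba*, at 40.8 and 34.02 FPKM (log2 ratio -0.26). *Ajuba* and *Amotl2* are known targets of YAP as well as regulators of it, and both had been named as such by the study, so the list is not independent of it. *Amot* and *Amotl1* had log2 ratios of -0.06 and -0.01.

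In that list *Ajuba*, *Amotl2*, *Ptpn14* and *Wtip* held the TEAD letters in their promoter windows, *Amot* and *Amotl1* did not, and *Limd1* had no window. The list was chosen for its link to YAP, so nothing is read from this count. Over all 7 lists, these genes included, 16 of 70 genes (22.9%) with a window held the letters. The first site of each of the 4 genes is shown as 30 bases on the strand of the gene, with the match in capitals (CATTCC is GGAATG on the opposite strand). The window of *Ajuba* held 2 matches and that of *Wtip* held 4.

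*Ajuba*, chr14:54577830-54577859, minus strand: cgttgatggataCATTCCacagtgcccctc

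*Amotl2*, chr9:102717727-102717756, plus strand: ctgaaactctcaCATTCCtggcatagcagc

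*Ptpn14*, chr1:189728110-189728139, plus strand: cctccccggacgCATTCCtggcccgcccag

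*Wtip*, chr7:34133489-34133518, minus strand: aatctGGAATGtgccctgaggcctcggggt

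Loci with and without a match had similar medians in the table as a whole. The median log2 ratio was -0.004 over the 1301 loci of 1 symbol with a match and -0.009 over the 7704 loci without one. Medians of whole-lung values over so many loci cannot show whether any single site acts, which was not tested. Of the other pathway loci that were lower by at least 1.2-fold, *Wwc1*, *Frmd6* and *Nuak1* had no match in their windows, and *Runx1* had a match in 1 of its 2 windows. *Tead3*, the member lower by that much, had the matches given above.

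The VGLL family and other partners of TEAD or YAP had 10 loci, 1 lower and 2 higher by at least 1.2-fold, with a median log2 ratio of 0.003. *Vgll4*, which competes with YAP for TEAD, was the most abundant VGLL gene, at 47.9 FPKM in control and 55.9 FPKM in mutant lungs, a log2 ratio of 0.22. *Tbx5*, a T-box factor of lung mesenchyme and heart that can act with YAP, was listed at 43.9 and 54.2 FPKM, a log2 ratio of 0.30. *Runx2*, under 1 FPKM in control lungs, was listed at 0.9196 and 2.27 FPKM and *Runx1* at 1.23 and 0.984 FPKM. *Vgll1* was listed at 0 in both genotypes.

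Of the 12 loci of 14-3-3 proteins, which hold phosphorylated YAP in the cytoplasm, and of ubiquitin ligases, 0 were lower and 1 was higher by at least 1.2-fold. The median log2 ratio was -0.05. *Ywhae* and *Nedd4* were the most abundant, at 559.4 and 522.6 FPKM and at 525.1 and 521.3 FPKM. *Ywhaq* was listed at 381.7 and 346.9 FPKM and *Fbxw7* at 7.79 and 7.11 FPKM. The higher locus was *Sfn*, a 14-3-3 gene of epithelia, at low levels of 1.40 and 2.24 FPKM.

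**Figure D4:**
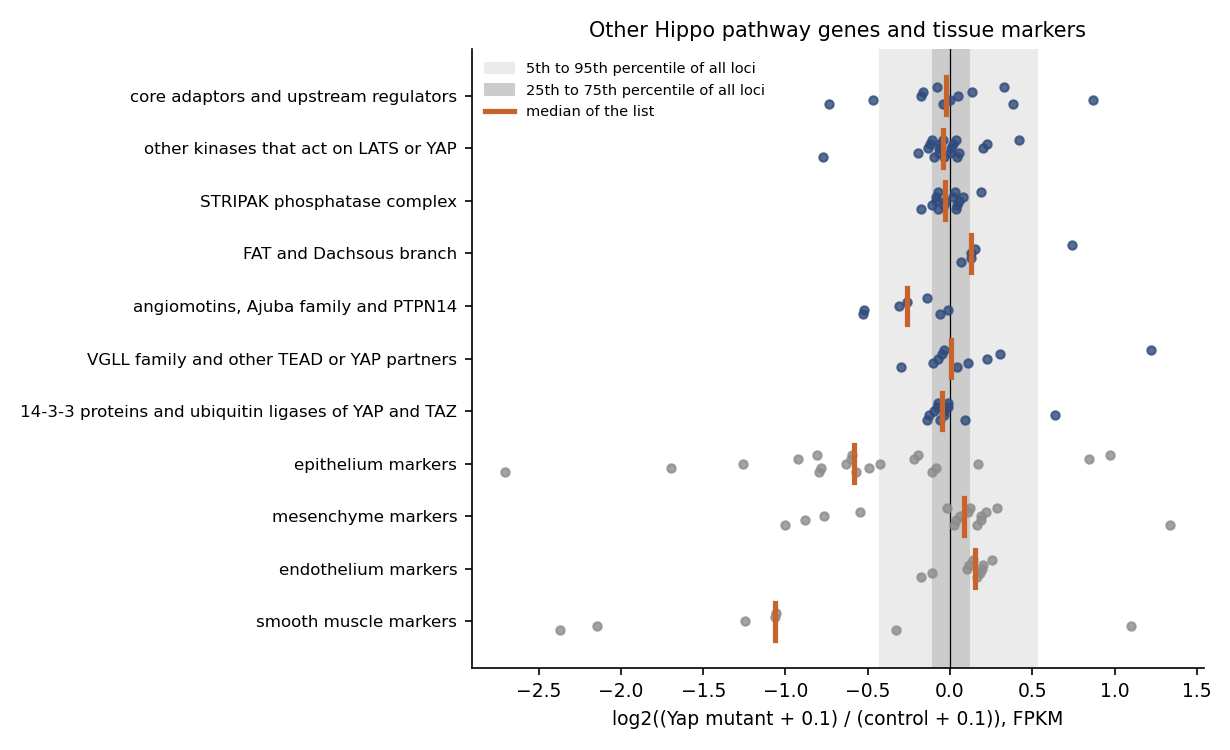
Log2 ratio of *Yap* mutant over control lungs for each locus averaging 1 FPKM or more (points) in 7 lists of other Hippo pathway genes and 4 lists of tissue markers, with list medians as bars and the middle 50% and 90% of all loci shaded. The list of angiomotins, the Ajuba family and *Ptpn14* has its median at -0.26, the epithelial markers at -0.58 and the smooth muscle markers at -1.06.

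Markers of the tissue layers of the lung differed between the groups as well. Over all loci, 8.78% were lower and 12.2% higher by at least 1.2-fold. Defining markers of the lung epithelium were present in both genotypes. Of these 20 markers, 13 were lower and 2 (*Id2* and *Sftpc*) were higher by at least 1.2-fold in the mutants, with a median log2 ratio of -0.58. Their summed level was 771.8 FPKM in control and 680.1 FPKM in mutant lungs. *Id2* and *Cldn6*, the most abundant of them, were listed at 117.7 and 211.0 FPKM and at 97.97 and 64.7 FPKM. Markers of mesenchyme had a median of 0.085 and summed to 1737 and 1736 FPKM, led by *Col3a1* and *Vim*, with 4 of 16 loci lower and 2 higher by at least 1.2-fold. The 4 lower loci were *Foxf1* (83.5 and 41.6 FPKM), *Wnt2* (46.5 and 27.3 FPKM) and both loci of *Tcf21* (log2 ratios -0.88 and -0.55), and *Fgf10* was higher, at 10.4 and 26.6 FPKM. Endothelial markers, led by *Egfl7* and *Cldn5*, had a median of 0.15 and summed to 270.9 and 297.7 FPKM, and 0 of 10 were past 1.2-fold. Smooth muscle markers, led by *Acta2* and *Actg2*, had a median log2 ratio of -1.06 and summed to 288.9 and 147.8 FPKM. Of 7 loci, 6 were lower by at least 1.2-fold and 1, *Des*, was higher, at 17.6 and 37.7 FPKM.

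Genes of other tissues also differed between the groups. All 10 cardiac muscle loci averaging 1 FPKM or more were higher in the mutants, by a median of 3.05 on the log2 scale, and the 13 loci summed to 121.6 FPKM in control and 889.0 FPKM in mutant lungs, led by *Myl7* and *Myl4*. *Tead1* and *Tbx5* are also expressed in the heart. For mesothelial markers (led by *Upk3b* and *Krt7*), erythroid markers (led by *Hbb-y* and the joint *Hba-a1* and *Hba-a2* locus), liver markers (led by *Afp* and *Apoa1*) and neural markers (led by *Stmn2* and *Tubb3*) the medians were 0.31, 0.11, 1.45 and -0.56. Of 5 mesothelial loci averaging 1 FPKM or more, 2 were lower and 3 higher. *Krt7* was listed at 31.7 and 17.1 FPKM, and the mesothelial list summed to 89.5 and 88.1 FPKM. The liver median rested on 3 loci, 1 lower and 2 higher. All 8 erythroid loci were higher, and 5 of 6 neural loci were lower. Of the sex genes, *Xist* was listed at 97.03 and 50.4 FPKM, and the 4 Y-linked genes, led by *Eif2s3y*, had at most 0.0163 FPKM in control and at least 4.61 FPKM in mutant lungs. The groups therefore differed in the sex of their embryos as well as in genotype. The effects of sex and genotype cannot be told apart in any ratio here. The part of these differences in the values of the Hippo core was not tested. The epithelial marker median of -0.58 was lower than the ratio of every member locus. The log2 ratio of the summed epithelial markers was -0.18, which was not as low as those of *Tead3*, *Tead4* and *Yap1*. That sum weighs abundant genes most, and *Id2*, the most abundant, was higher in the mutants, at 117.7 and 211.0 FPKM. *Sftpc* was higher too, at 28.4 and 55.8 FPKM, while 17 of the 20 loci were lower. The list also holds *Shh*, at 15.6 and 2.31 FPKM, of which the mutants carry 1 altered allele.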

How the data were processed

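Expression was measured by RNA-Seq in 3 control and 3 *Yap* mutant lung samples, grouped by their labels. The submitters' processing notes name TopHat, Cuffdiff and mm10, without versions, and the paper adds stranded paired-end libraries and the Maverix platform. The authors deposited 2 tables. The table of all 24402 loci, used here, holds 1 FPKM value per genotype, which the authors made by normalizing aligned fragments and summarising the 3 libraries, and the unit was read from its Cuffdiff layout. It also holds the authors' fold changes and p-values, which were not used. The table of loci that the authors selected by these was not used either.

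Depth per library is unknown, and with 1 value per genotype no test was possible. Log2 ratios were computed after adding 0.1 FPKM, and background shares over the 12716 loci averaging 1 FPKM or more. All loci summed to 538651 FPKM (control) and 522467 FPKM (mutant). Sizes of 1.2-fold and 1.5-fold were counted. No column belonged to other samples (0). Locus starts were raised by 1. Coordinates span the authors' locus, which can reach past the gene.

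All members were named. From each further pathway list the 2 highest by level and the 3 with the largest ratios at an average of 1 FPKM or more were named, and from the marker lists the 2 highest, with the others named after their values were seen. The members and lists were chosen with earlier results of these data known. The counting was run on simulated data with known ratios and no noise, which checks its arithmetic only. Alternatives were other pseudocounts, filters and scalings and other forms of the motif. Promoter windows are from RefSeq on GRCm38.p6, matched by symbol, and gene models are from GENCODE on GRCm38. Python 3.11.15, numpy 2.4.6, pandas 2.3.3 and matplotlib 3.10.9 were used.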

Additional observations from a re-analysis of the deposited data

How the results depend on the processing

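No paired analysis was possible because the deposited table gives 1 value per genotype and no value per library, and no library could be left out for the same reason. Without a spread, a log2 ratio was taken as moved when it shifted by at least 0.1, and a count or share when it shifted by more than 1.5 times. Of 44 recomputed log2 ratios of member loci, 43 stayed within that bound. The exception was the second *Tead1* locus, at 0.47 with a pseudocount of 1 FPKM, where the count of members higher by at least 1.5-fold became 0. With no pseudocount, *Tead4* joined *Tead3* and 2 members were lower by at least 1.2-fold. Leaving out the second *Tead1* locus, an alternative chosen after seeing the data, left 0 members higher by at least 1.2-fold.

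When loci had to average 5 FPKM or more, the background shares became 7.16% for higher by 1.2-fold, 1.91% for lower by 1.5-fold and 2.27% for higher by 1.5-fold. Under the same filter, 3 of the other Hippo pathway loci were higher by at least 1.2-fold and 1 by at least 1.5-fold, and with a pseudocount of 1 FPKM 2 were higher by at least 1.5-fold. With the longer motif GGAATGT, 2 of the 7 member genes with a window had a match (28.6%), beside 4.47% of all genes. For the shorter GGAAT, 5 of the 7 had one (71.4%), beside 42.2% of all genes. Scaling both columns to the same total shifted ratios of members by at most 0.06. Single pathway lists moved in 18 further counts, all at lists of 22 or fewer loci.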
